A study of Homo sapiens with 6 samples.

Results

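The genes described here are the families of plasma membrane amino acid transporters, taken by symbol as every row of the SLC1A, SLC3A1 and SLC3A2, SLC6A, SLC7A, SLC36A, SLC38A and SLC43A families. Of 26364 symbols in the count files, 65 matched, and the 37 with 10 or more counts in at least 3 libraries are reported. Of these 37, 33 are transporter genes and 4 (SLC7A5P1, SLC7A5P2, SLC7A11-AS1 and SLC7A6OS) are pseudogenes, an antisense gene and a neighbour that carry a transporter's symbol. The tested cells were ZR-75-30 infected with the CDK12 lentivirus (pLVX-CDK12, 3 libraries), and the controls were the same line infected with the empty pLVX lentivirus (3 libraries). ZR-75-30 is an established human breast adenocarcinoma line with amplified ERBB2, and CDK12 is a kinase of transcription elongation. Polyadenylated RNA was sequenced from the bulk of each culture. The sources used here give neither the promoter of the viral CDK12 nor whether the 3 libraries of a group came from separate infections, so p-values measure the spread between these libraries, which may be technical.

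Amino acids cross the plasma membrane by a division of labour. Sodium-coupled loaders such as the SLC38 and many SLC6 and SLC1 proteins concentrate amino acids in the cell, and exchangers such as the SLC7 light chains and ASCT2 trade one amino acid for another. The SLC7 light chains need a heavy chain, SLC3A2 (CD98hc) or SLC3A1 (rBAT), to reach the surface. Breast cancer lines are known for the use of ASCT2, LAT1 and xCT to obtain glutamine, leucine and cystine.

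Library totals ran from 23628890 to 26543653 counts with CDK12 and from 21178163 to 25014857 in controls, and CDK12 itself was at 2009 to 2240 CPM (counts per 1000000, with library sizes scaled by TMM) against 72.8 to 81.8 CPM. CDK12 replicate 1 stood somewhat apart from its group, with a chi-square per degree of freedom over genes of 4.55 and 4.44 against the other CDK12 libraries, where the other pairs within a group gave 2.74 to 2.92. The epithelial markers EPCAM, KRT8, KRT18 and KRT19 were at 179.7 to 1706 CPM with CDK12 and 184 to 1951 CPM in controls. Of the 10 epithelial markers fixed for this check, 7 (70%) fell and 3 did not pass by edgeR's quasi-likelihood test, where 18.9% of all genes tested fell; their median log2 fold change was -0.19 and their summed level 12370 to 12970 CPM with CDK12 and 14150 to 14840 CPM in controls. Of 16 markers of other cell types, 6 passed the filter on low counts, COL1A1 and CD14 rose and PTPRC and COL3A1 fell, and their summed level was 64.8 to 76.4 CPM with CDK12 and 53.1 to 59.7 CPM in controls, most of it COL1A1. None of the 16 was at 0 in all 6 libraries, and the part of these markers in the results below was not tested.

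Of the 37 genes reported, 9 were higher and 5 lower with CDK12, and 23 did not pass (edgeR's quasi-likelihood test, with p-values adjusted by Benjamini-Hochberg over all genes and a threshold of 0.05). Among all 14665 genes tested 35.1% passed, 16.2% higher and 18.9% lower. The 14 calls are 37.8% of the 37 members, near that background in total, with 24.3% higher and 13.5% lower. Of the 33 transporter genes alone, 42.4% passed, 27.3% higher and 15.2% lower. The difference of these shares from the background was not tested. In 18 of the 37 the groups' libraries did not overlap, 13 with CDK12 above and 5 with CDK12 below, where 45.6% of all genes tested had no overlap, 22.1% with CDK12 above and 23.6% below. The median log2 fold change was 0.05 over the 37 members and 0.00347 over all genes tested. SLC6A12 reached 10 counts only in the CDK12 libraries and SLC6A14 only in the controls, so that both had to differ to be reported, and these counts describe the list and support nothing. Without control replicate 3, 4 members were higher, and without control replicate 2, 5 were; 5 were lower in each case.

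**Figure D1:**
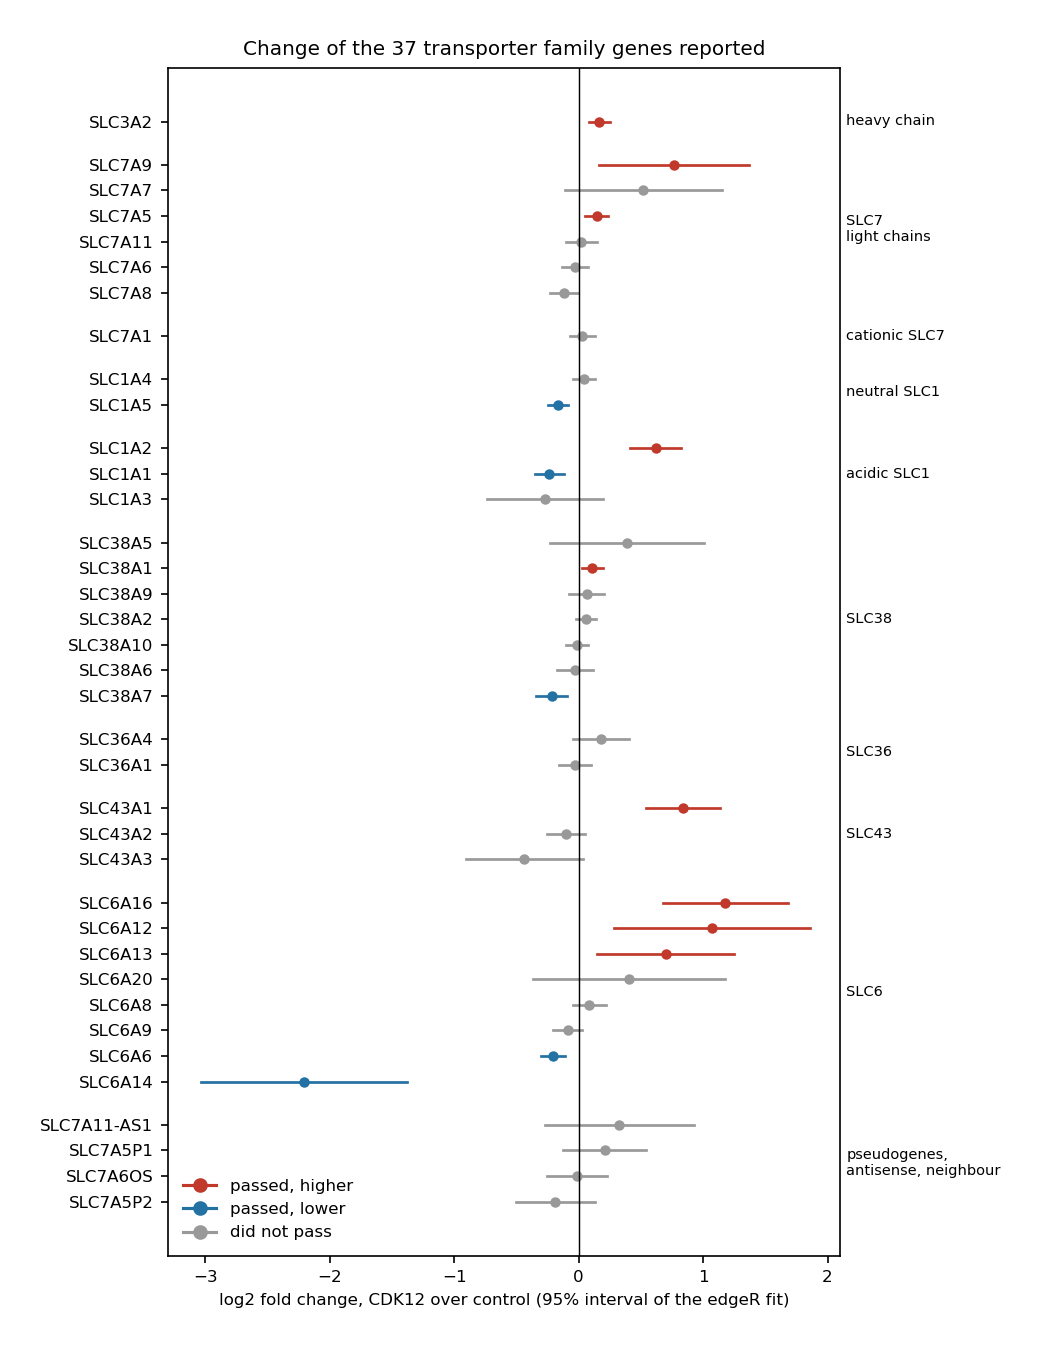
Log2 fold change of the 37 reported genes (x axis, CDK12 over control, with the 95% interval of the edgeR fit), grouped by transporter class from top to bottom; red points passed as higher, blue as lower and grey did not pass. The abundant genes sit close to 0 with narrow intervals, and the folds beyond 0.5 in size belong to genes under 10 CPM.

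The CD98 heavy chain and its LAT1 light chain both rose, 1.12-fold for SLC3A2 and 1.10-fold for SLC7A5, and the glutamine exchanger ASCT2 (SLC1A5) fell to 0.89 times its control level. These changes are of ordinary size. The median absolute log2 fold change was 0.14 over all genes tested and 0.27 over the genes that passed. SLC3A2, the heavy chain that carries most SLC7 light chains to the surface, was at 436.5, 398.9 and 434.5 CPM in the CDK12 libraries, against 376.4, 368.6 and 386.7 CPM in the controls. The lowest CDK12 library lay above the highest control. The mean was 423 ± 21.2 CPM with CDK12 and 377 ± 9.09 CPM in controls (SD, n = 3 each), a log2 fold change of 0.17 (SE 0.04; adjusted p = 0.00289 by edgeR). In bulk RNA a small change in every cell and a larger one in some cells cannot be told apart, which holds for every value here.

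SLC7A5 encodes LAT1, which exchanges large neutral amino acids such as leucine. Its level was 96.1, 95.4 and 97.4 CPM with CDK12, against 89.9, 85.8 and 85.8 CPM in controls. The groups did not overlap, and the CDK12 libraries lay close to each other. The log2 fold change was 0.14 (SE 0.04; adjusted p = 0.012 by edgeR). The call was lost without control replicate 2 (adjusted p = 0.0503) or control replicate 3 (0.0552).

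SLC1A5 encodes ASCT2, a sodium-dependent exchanger that brings in glutamine. It was at 466.8, 463.7 and 480.8 CPM with CDK12, against 529.8, 518 and 537.8 CPM in controls. Every CDK12 library lay below every control, with means of 470.4 ± 9.12 CPM with CDK12 and 528.5 ± 9.95 CPM in controls (SD, n = 3 each). The log2 fold change was -0.17 (SE 0.04; adjusted p = 0.00135 by edgeR). The sources used here do not give the strand setting of the counting, so the SLC1A5 count may include reads from the opposite strand.

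SLC3A2 and SLC7A5 moved opposite to SLC1A5, and their ratios were taken for that reason. A ratio of counts within a library needs no scaling between libraries. There were 0.935, 0.860 and 0.904 SLC3A2 counts per SLC1A5 count in the CDK12 libraries, against 0.710, 0.711 and 0.719 in the controls. For SLC7A5 the ratio to SLC1A5 was 0.206, 0.206 and 0.203 with CDK12 and 0.170, 0.166 and 0.160 in controls. Both ratios were higher in every CDK12 library than in any control. The ratio of SLC7A5 to SLC3A2 was 0.228 ± 0.00999 with CDK12 and 0.231 ± 0.00857 in controls (SD, n = 3 each), and its groups overlapped. These ratios were chosen after the values were seen and are given as a description, and 3 against 3 libraries cannot reach an exact two-sided permutation p under 0.1.

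**Figure D2:**
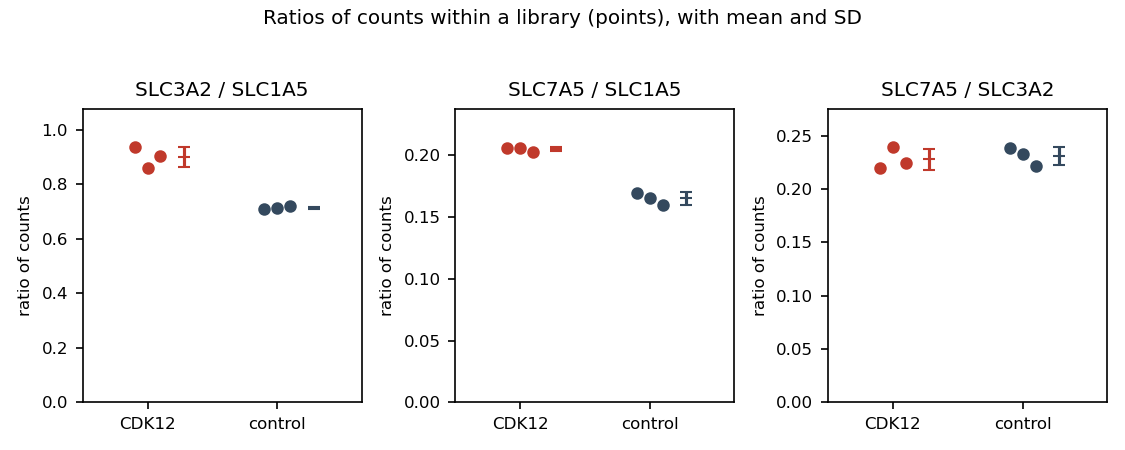
Ratio of raw counts of 2 genes within each library (y axis, from 0) for the CDK12 and control libraries, with points for libraries and a bar for mean and SD. SLC3A2 per SLC1A5 lies between 0.860 and 0.935 with CDK12 and between 0.710 and 0.719 in controls, while SLC7A5 per SLC3A2 overlaps between the groups.

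The promoter windows of these 3 genes are shown because the changes in the CD98 heavy chain, LAT1 and ASCT2 are described above; each runs from 250 bases before to 50 bases after the RefSeq start on GRCh38.p14, 5′ to 3′ on the gene's strand. SLC3A2 lies at chr11:62881449-62881748 on the plus strand, SLC7A5 at chr16:87869458-87869757 and SLC1A5 at chr19:46788545-46788844, both on the minus strand. Capitals mark matches to TGATGNAAN, the C/EBP-ATF response element that ATF4 is known to bind, or to TGACNNNGC, the core of the antioxidant response element, on either strand.
SLC3A2: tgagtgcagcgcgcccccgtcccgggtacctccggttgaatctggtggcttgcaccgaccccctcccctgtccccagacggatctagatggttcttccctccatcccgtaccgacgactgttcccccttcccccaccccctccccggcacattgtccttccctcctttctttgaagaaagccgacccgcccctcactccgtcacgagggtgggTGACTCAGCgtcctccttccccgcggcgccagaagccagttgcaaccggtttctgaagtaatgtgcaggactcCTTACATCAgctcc
SLC7A5: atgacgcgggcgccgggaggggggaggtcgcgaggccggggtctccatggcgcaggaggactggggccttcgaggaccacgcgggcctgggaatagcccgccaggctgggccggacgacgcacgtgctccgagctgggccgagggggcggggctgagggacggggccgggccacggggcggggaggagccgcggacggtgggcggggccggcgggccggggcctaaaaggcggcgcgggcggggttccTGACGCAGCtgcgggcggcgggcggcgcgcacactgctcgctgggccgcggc
SLC1A5: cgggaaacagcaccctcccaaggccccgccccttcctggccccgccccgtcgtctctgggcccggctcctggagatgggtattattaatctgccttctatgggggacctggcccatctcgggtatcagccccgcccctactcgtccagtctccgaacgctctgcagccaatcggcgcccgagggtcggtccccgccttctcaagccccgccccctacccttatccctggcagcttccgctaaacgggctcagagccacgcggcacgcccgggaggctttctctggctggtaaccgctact
In SLC3A2 the antioxidant core began 37 bases before the start, where its letters also hold the AP-1 site TGACTCA, and the C/EBP-ATF match began 36 bases after the start on the minus strand. In SLC7A5 the antioxidant core began 2 bases before the start, and the SLC1A5 window held neither. Promoter windows were found for 29 of the 37 genes. SLC7A11 was not among them, so its promoter was not searched. The C/EBP-ATF letters occurred in 4 of them (SLC3A2, SLC38A1, SLC7A1 and SLC1A3), which is 13.8%, and in 3.61% of all 35116 windows. The antioxidant core occurred in 5 (17.2%) and in 13.3% of all windows. The members' shares rest on the first window of each gene, and the background shares on every window of every gene. These shares are thus not like for like, and their difference was not tested. A match is a description of letters and no site.

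Of the other SLC7 light chains, SLC7A9 passed the test, and SLC7A11, SLC7A6, SLC7A8 and SLC7A7 did not. SLC7A11 encodes xCT, which trades glutamate for cystine and so feeds glutathione synthesis. It was at 57.9, 73.9 and 66.5 CPM with CDK12, against 65.3, 67.6 and 62.5 CPM in controls. CDK12 replicate 1 was the lowest of the 6 libraries and CDK12 replicate 2 the highest, and the groups overlapped. The log2 fold change was 0.02 with a 95% interval from -0.11 to 0.15 (adjusted p = 0.825 by edgeR). SLC7A6, a y+LAT exchanger of cationic for neutral amino acids, had a log2 fold change of -0.03 (interval -0.13 to 0.08), and SLC7A8, the neutral exchanger LAT2, one of -0.12 (-0.23 to -0.0058, adjusted p = 0.0939). SLC7A7, the other y+LAT light chain, had 16, 16 and 25 counts with CDK12 and 12, 11 and 13 in controls and did not pass (adjusted p = 0.198).

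SLC7A9 is the light chain that pairs with SLC3A1 in the exchanger of cystine and basic amino acids known from kidney. It had 19, 22 and 23 counts in the CDK12 libraries, against 12, 9 and 13 in the controls. It rose without overlap, with a log2 fold change of 0.77 (SE 0.29; adjusted p = 0.0424 by edgeR). The call was lost in 8 of 14 alternatives, namely DESeq2 (adjusted p = 0.173), the replicate block (0.0541), no filter beyond 1 count (0.0588) and each fit without a library (0.0828 to 0.126) save that without CDK12 replicate 1. SLC3A1, its heavy chain, had too few counts to be reported.

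Among the cationic carriers, SLC7A1 was the one reported. It encodes CAT1, the main carrier of arginine and lysine in most cells. Its level was 64, 69.5 and 66.2 CPM with CDK12, against 66.7, 64.1 and 64.7 CPM in controls, and the groups overlapped. The log2 fold change was 0.03 with a 95% interval from -0.07 to 0.13 (adjusted p = 0.659 by the same edgeR test). SLC7A2, which encodes CAT2, had 3, 3 and 5 counts with CDK12 and 7, 3 and 11 in controls, and so lay just outside the rule.

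The acidic carriers went opposite ways. SLC1A2 encodes GLT-1 (EAAT2), the glutamate carrier best known from astrocytes. It was at 8.40, 8.65 and 8.96 CPM with CDK12, against 5.71, 5.76 and 5.48 CPM in controls. It rose in every CDK12 library over every control, 1.53-fold (log2 fold change 0.62, SE 0.10; adjusted p = 1.92e-05 by edgeR). SLC1A1 encodes EAAC1 (EAAT3), which takes up glutamate, aspartate and cysteine in epithelia and neurons. It was at 36.6, 38.7 and 35.5 CPM with CDK12, against 45.4, 42.2 and 42.9 CPM in controls. It fell without overlap, with a log2 fold change of -0.24 (SE 0.06; adjusted p = 0.00177 by the same test). SLC1A3, the glial carrier GLAST, was at 1.09 ± 0.23 CPM with CDK12 and 1.32 ± 0.20 CPM in controls (adjusted p = 0.376), and SLC1A4, the small neutral exchanger ASCT1, at 105 ± 2.65 and 102 ± 2.45 CPM in the same order (log2 fold change 0.05, interval -0.04 to 0.14).

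**Figure D3:**
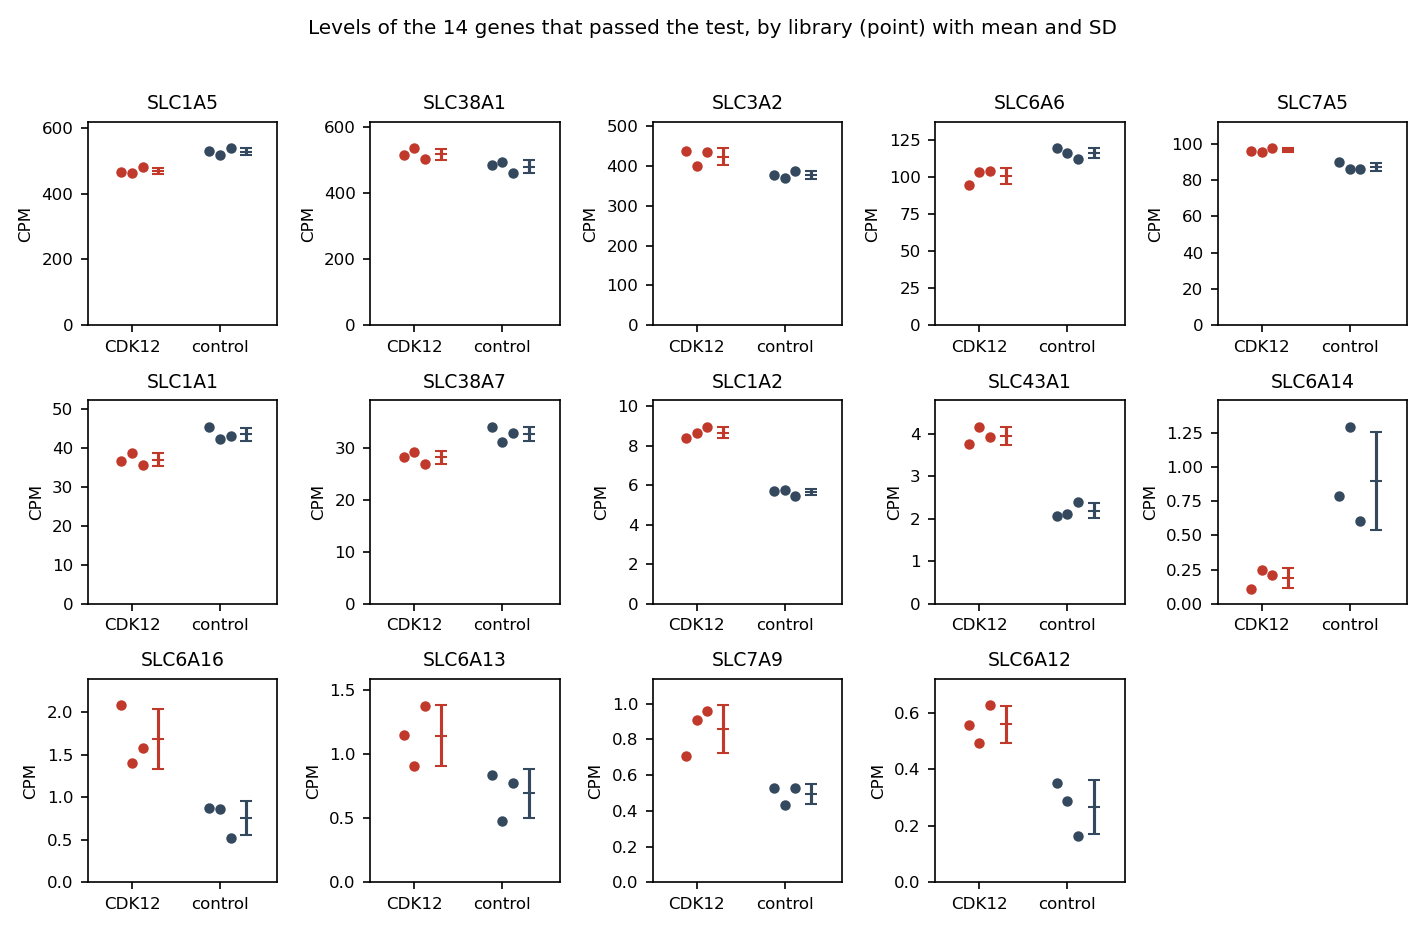
Levels in TMM-scaled CPM (y axes from 0, a scale for each gene) of the 14 genes that passed the test, with a point for each library and a bar for mean and SD; CDK12 libraries are red and stand left of the control libraries. The genes were picked for passing the test on these same libraries, so the lack of overlap in all 14 panels describes that choice. Over all genes tested, 45.6% had no overlap. Of the 14 genes, 7 lie under 10 CPM in both groups.

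Of the SLC38 family, which loads glutamine and other neutral amino acids, 1 of 7 reported genes rose, 1 fell and 5 did not pass, which is 28.6% called where 35.1% of all genes tested were. SLC38A1 encodes SNAT1, a sodium-coupled glutamine loader. Its level was 515.2, 537 and 503.2 CPM with CDK12, against 486.5, 496.7 and 460.4 CPM in controls. The groups did not overlap, but the gap between the lowest CDK12 library and the highest control was smaller than the spread within either group. The log2 fold change was 0.11 (SE 0.04; adjusted p = 0.0427 by edgeR), and the call was lost without CDK12 replicate 2 (adjusted p = 0.19), control replicate 1 (0.0771) or control replicate 3 (0.227).

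SLC38A2 encodes SNAT2, a loader that is known to rise when cells are starved of amino acids. It was at 354.3, 368.3 and 353.8 CPM with CDK12, against 344.8, 351.6 and 339.1 CPM in controls. The CDK12 libraries lay above the controls, but the change did not pass (log2 fold change 0.06, 95% interval -0.02 to 0.14; adjusted p = 0.284 by edgeR). SLC38A7 encodes SNAT7, which exports glutamine from lysosomes. It was at 28.3, 29.3 and 27 CPM with CDK12, against 34, 31.3 and 32.9 CPM in controls, and fell without overlap (log2 fold change -0.22, SE 0.06, adjusted p = 0.00697 by the same test). SLC38A9, the lysosomal arginine sensor of mTORC1, was at 20.7 ± 1.00 CPM with CDK12 and 19.7 ± 0.62 CPM in controls (log2 fold change 0.06, adjusted p = 0.488). SLC38A10 and SLC38A6 had log2 fold changes of -0.02 and -0.03, and SLC38A5, at under 1 CPM, one of 0.39 with an interval from -0.23 to 1.00.

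Of the 3 reported genes of the SLC43 family, which holds facilitated carriers of large neutral amino acids, SLC43A1 passed the test. It encodes LAT3, which lets leucine and its relatives cross without an exchange partner. It had 101, 101 and 94 counts in the CDK12 libraries, against 47, 44 and 59 in the controls. It rose 1.79-fold without overlap, to 3.94 ± 0.20 CPM with CDK12, against 2.19 ± 0.18 CPM in controls (log2 fold change 0.84, SE 0.14; adjusted p = 5.17e-05 by edgeR). SLC43A2, which encodes the related LAT4, was at 24.8 ± 3.06 CPM with CDK12 and 26.5 ± 1.24 CPM in controls (log2 fold change -0.10, adjusted p = 0.31). SLC43A3, a carrier of purine nucleobases, had 29, 30 and 19 counts with CDK12 and 34, 23 and 39 in controls and did not pass (adjusted p = 0.144). The SLC36 carriers SLC36A1 (PAT1) and SLC36A4 (PAT4) did not pass, with log2 fold changes of -0.03 and 0.18 (adjusted p = 0.767 and 0.216 by the same edgeR test).

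The SLC6 family, which holds carriers of neurotransmitters, taurine and creatine beside those of amino acids, gave the largest folds, all from genes with few counts. Of its 8 reported genes 3 rose, 2 fell and 3 did not pass, which is 62.5% called where 35.1% of all genes tested were. That share includes SLC6A12 and SLC6A14, which each met the count rule through a single group, so it supports nothing. SLC6A14 encodes ATB0,+, a concentrating carrier of neutral and cationic amino acids. It had 3, 6 and 5 counts in the CDK12 libraries, against 18, 27 and 15 in the controls. It thus met the count rule only through the controls and had to differ to be reported, as SLC6A12 did through the CDK12 libraries. The CDK12 libraries lay far below the controls, and control replicate 2 was the highest of its group. The level was 0.189 ± 0.07 CPM with CDK12 and 0.898 ± 0.36 CPM in controls (log2 fold change -2.21, SE 0.40; adjusted p = 0.000107 by edgeR). A library with 0 counts could still hold up to 3, or 0.113 to 0.142 CPM by library, so that the CDK12 level lies close to what this depth can show.

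SLC6A16, an orphan carrier, had 56, 34 and 38 counts with CDK12, against 20, 18 and 13 in controls. It rose 2.26-fold without overlap (log2 fold change 1.18, SE 0.25; adjusted p = 0.00048 by edgeR). SLC6A12 (the betaine carrier BGT1) had 15, 12 and 15 counts with CDK12 and 8, 6 and 4 in controls, and its neighbour in the family SLC6A13 (the GABA carrier GAT2) had 31, 22 and 33 against 19, 10 and 19. Both rose, with log2 fold changes of 1.07 (adjusted p = 0.0313) and 0.70 (adjusted p = 0.0424) by the edgeR test. The SLC6A12 call was lost in 6 of 14 alternatives, namely DESeq2 (adjusted p = 0.148), the replicate block (0.0508) and the fits without CDK12 replicate 1 or 3 or control replicate 2 or 3 (0.0574 to 0.173). The SLC6A13 call was lost in 5 of 14, with DESeq2 (adjusted p = 0.155) and without the same 4 libraries (0.0651 to 0.183). SLC6A20, a carrier of proline, had 10, 18 and 10 counts with CDK12 and 11, 6 and 9 in controls and did not pass (adjusted p = 0.431).

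The abundant SLC6 genes had smaller folds. SLC6A6 encodes TauT, the taurine carrier. It was at 94.9, 103.3 and 104.4 CPM with CDK12, against 119.6, 116.4 and 112.7 CPM in controls. It fell without overlap (log2 fold change -0.20, SE 0.05; adjusted p = 0.000998 by edgeR). SLC6A8, the creatine carrier, was at 32.1 ± 2.56 CPM with CDK12 and 30.2 ± 1.52 CPM in controls (log2 fold change 0.09), and SLC6A9, the glycine carrier GlyT1, at 48.3 ± 2.28 and 51.3 ± 3.36 CPM in the same order (log2 fold change -0.09). Neither passed, with adjusted p = 0.314 and 0.223 by the same edgeR test.

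Of the 33 transporter genes reported, 19 did not pass. Of these, 14 had 5 CPM or more in both groups, and their log2 fold changes ran from -0.12 to 0.18, with no 95% interval reaching past 0.41 in size. The 4 other rows were SLC7A5P1 (2.41 ± 0.18 CPM with CDK12 and 2.08 ± 0.03 CPM in controls), SLC7A5P2 (2.96 ± 0.58 and 3.34 ± 0.29 CPM), SLC7A11-AS1 (0.715 ± 0.10 and 0.569 ± 0.04 CPM) and SLC7A6OS (4.65 ± 0.28 and 4.69 ± 0.30 CPM), each in the same order, and none passed. SLC7A5P1 and SLC7A5P2 are partial copies of SLC7A5, SLC7A11-AS1 overlaps SLC7A11 and SLC7A6OS overlaps SLC7A6, so reads could be assigned to either. In GENCODE 29, exons of 14 reported genes overlap exons on the opposite strand, 6 of the 14 called genes among them, and such counts are uncertain.

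The 28 rows that were not reported held at most 11 counts in any library, and 2 of them had 0 counts in all 6. Just inside the rule were SLC6A12 and SLC6A14, with 10 counts in 3 libraries, and SLC6A20, with 10 in 4. Just outside were SLC6A11, SLC7A2 and SLC7A13, which reached 10 counts in 1 library each. SLC7A13 had 7, 10 and 7 counts with CDK12 and 5, 3 and 2 in controls, and SLC6A11 had 2, 10 and 3 against 7, 5 and 9. These were not tested.

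Levels of different genes were compared as CPM per kilobase of exon in the GENCODE 29 basic annotation, which may not be the authors' gene models. SLC3A2 stood first with CDK12 at 160 ± 7.98 CPM per kilobase, followed by SLC1A5 at 141 ± 2.72, while in controls SLC1A5 stood first at 159 ± 2.97 and SLC3A2 second at 142 ± 3.41 (SD, n = 3 each). The order of these 2 genes turned in every library, but this rests on the exon lengths used. In CPM, without exon lengths, SLC1A5 lay above SLC3A2 in every library of both groups. SLC38A2 (71.7 ± 1.64 with CDK12, 69 ± 1.25 in controls), SLC38A1 (55.6 ± 1.83 and 51.6 ± 2.01), SLC38A10 (30.5 ± 1.10 and 30.8 ± 1.04), SLC1A4 (22.5 ± 0.57 and 21.8 ± 0.53) and SLC7A5 (21 ± 0.22 and 19 ± 0.52) came next in both groups, all in CPM per kilobase. Each of these lay clear of its neighbours in the order in both groups. Further down, SLC6A9, SLC7A8 and SLC1A1 overlapped their neighbours in the CDK12 libraries, as did SLC7A1, SLC38A6, SLC6A8 and SLC7A6.

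The 5 reported light chains that pair with SLC3A2 (SLC7A5, SLC7A6, SLC7A7, SLC7A8 and SLC7A11) summed to 47.1 ± 1.64 CPM per kilobase with CDK12 and 46 ± 1.22 in controls, below the heavy chain's own 160 and 142 (SD, n = 3 each). The 4 genes with the most counts, SLC38A1, SLC1A5, SLC3A2 and SLC38A2, held 64.5% to 65.7% of the families' summed CPM with CDK12 and 63.6% to 64.6% in controls. The sum over all 65 rows was 2727 ± 24.7 CPM with CDK12 and 2702 ± 24.8 CPM in controls, and the groups overlapped. As a share of all counts, with no scaling, it was 0.274% to 0.278% with CDK12 and 0.264% to 0.269% in controls, without overlap, so this comparison turns on the scaling.

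**Figure D4:**
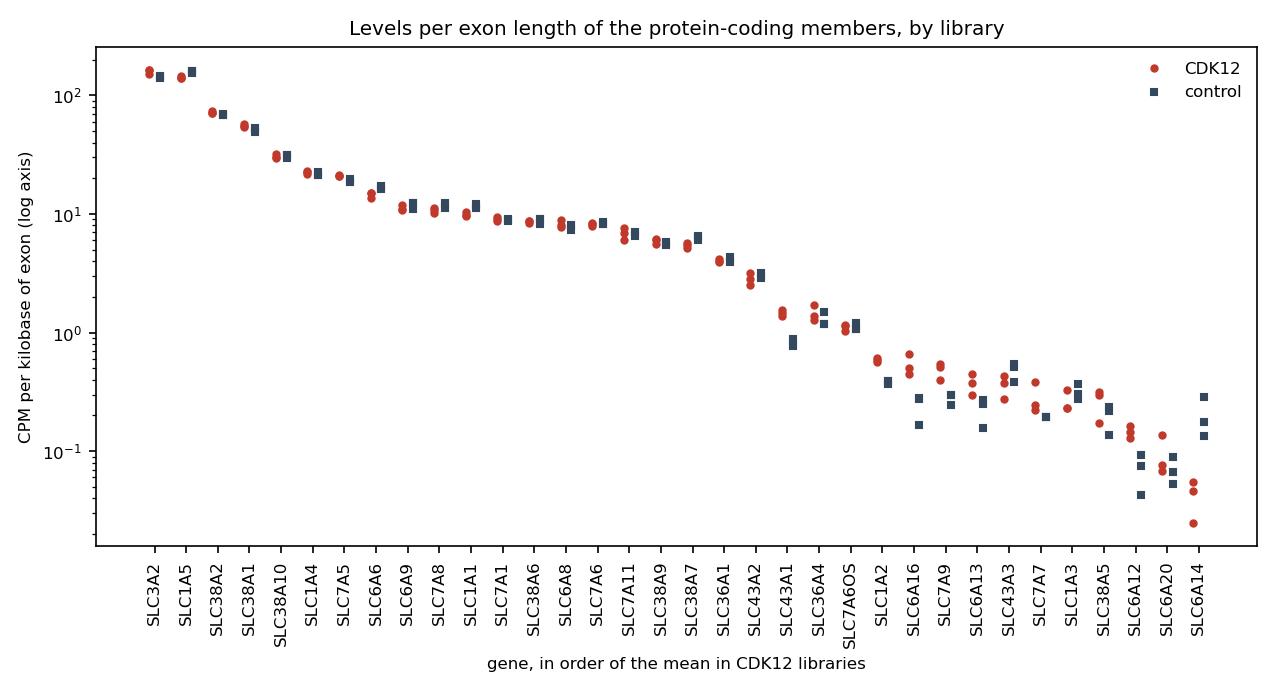
Level in CPM per kilobase of exon (log axis) of the 34 protein-coding genes reported, in order of the mean in CDK12 libraries, with red circles for CDK12 and dark squares for control libraries. SLC3A2 and SLC1A5 lead and, at the exon lengths used, change places between the groups. The widest gaps between groups are among the genes under 1 CPM per kilobase at the right, of which SLC6A12 and SLC6A14 had to differ to be reported. Others there overlap between the groups, namely SLC43A3, SLC1A3, SLC38A5 and SLC6A20.

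Other genes of amino acid handling were counted in 6 lists, read against the 35.1% of all genes that passed. Of 11 tested carriers and carrier partners outside these families, 1 rose and 3 fell (36.4% called, median log2 fold change -0.15). SLC16A10, the aromatic amino acid carrier TAT1, was at 1.52, 1.61 and 1.58 CPM with CDK12, against 1.14, 1.06 and 1.06 CPM in controls (adjusted p = 0.0457, edgeR quasi-likelihood). It was lost in every fit that left out a library. SLC15A3, a lysosomal carrier of histidine and peptides, fell to 0.828 ± 0.09 CPM with CDK12, against 1.57 ± 0.55 CPM in controls. TMEM104 fell with a log2 fold change of -0.27.

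Of 38 genes by which mTORC1 senses amino acids, 3 rose and 7 fell (26.3% called, median log2 fold change -0.05). RRAGD, a Rag GTPase that brings mTORC1 to the lysosome, was at 25, 23.8 and 24.1 CPM with CDK12, against 14.8, 16.4 and 16.8 CPM in controls. It rose without overlap (log2 fold change 0.60, SE 0.07; adjusted p = 1.29e-07 by edgeR). C7orf60, which encodes the methionine sensor SAMTOR, rose (0.24), and SEC13 (-0.26), LAMTOR5 (-0.26) and GATSL3, which encodes the arginine sensor CASTOR1 (-0.30), fell on the log2 scale.

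Of 22 genes listed for the amino acid deprivation response, 4 rose and 3 fell (31.8% called, median log2 fold change 0.03). The list takes in eIF2 kinases whatever the stress that activates them, EIF2AK2 among them. DDIT3, a stress-induced transcription factor, rose with a log2 fold change of 0.46, PPP1R15A with 0.24 and ATF3 with 0.16, and ATF5 fell with -0.45 and EIF2AK2 with -0.37. The other eIF2 kinases of the list, EIF2AK4, EIF2AK3 and EIF2AK1, did not pass (log2 fold changes -0.02, -0.04 and -0.01). ATF4 itself, the factor that drives many transporter genes in starved cells, was at 662 ± 28 CPM with CDK12 and 621 ± 4.57 CPM in controls and did not pass (log2 fold change 0.09, unadjusted 95% interval 0.0087 to 0.17; adjusted p = 0.0783 by edgeR). ASNS, asparagine synthetase and a classic ATF4 target, was at 28.2 ± 0.79 CPM with CDK12 and 25.7 ± 1.47 CPM in controls and did not pass either (adjusted p = 0.102 by edgeR).

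Of 34 tested enzymes of amino acid synthesis and breakdown, 7 rose and 6 fell (38.2% called, median log2 fold change 0.03). ODC1, which makes putrescine from ornithine, rose with a log2 fold change of 0.32, CBS, of cysteine synthesis, with 0.34 and ASS1, of arginine synthesis, with 0.19. ASL, the next enzyme after ASS1, fell to 15.2 ± 0.68 CPM with CDK12, against 22.1 ± 0.38 CPM in controls, and BCKDHA, of branched-chain amino acid breakdown, had a log2 fold change of -0.24. Of 18 genes of glutathione and cystine handling, 3 rose and 5 fell (44.4% called, median log2 fold change 0.0073). GSS (-0.27), TXNRD1 (-0.17) and BAP1 (-0.15) fell and GGT1 (0.15) and GPX4 (0.12) rose on the log2 scale; GSS makes glutathione, GPX4 uses it to reduce lipid peroxides, TXNRD1 keeps thioredoxin reduced, and BAP1 is a deubiquitinase known to repress SLC7A11. Of 23 cytosolic aminoacyl-tRNA synthetases and their scaffolds, 4 rose and 6 fell (43.5% called, median log2 fold change 0.03). HARS (-0.30), QARS (-0.24) and VARS (-0.20) fell and DARS (0.20) and AIMP1 (0.13) rose on the log2 scale, but with upper-quartile factors 7 rose and with total counts 8.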

How the data were processed

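Each deposited file holds raw counts per gene symbol for 1 library. Per the submitters' processing notes, the authors used CASAVA 1.8, STAR 2.6.0c and featureCounts (Subread 1.6.2) with hg19; the sources used here do not give the annotation, the strand setting or the handling of reads with several matches. Library totals are 21178163 to 26543653 counts, and floors cover counting error only.

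The counts were filtered with filterByExpr (minimum count 10, total 15), scaled by TMM, and tested with edgeR 4.0.16's quasi-likelihood test (group as the only term; Benjamini-Hochberg over 14665 genes, threshold 0.05). Test code was tested on simulated data. SE is the log2 fold change divided by the square root of F. Exon lengths came from GENCODE 29 (GRCh38) and promoters from RefSeq (GRCh38.p14). The families and lists were chosen with earlier results of these data known. Values in every library are given for members that passed and for SLC3A2, SLC7A5, SLC7A11, SLC1A5, SLC7A1, SLC38A1 and SLC38A2; from each list up to 3 called genes in the main direction and 2 in the other are named, others being named outside the rule. Alternatives were DESeq2 1.42.0, limma-voom (limma 3.58.1), other scalings and filters, the replicate block and leaving out each library. Some items of the lists counted are not reported by name here.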

Additional observations from a re-analysis of the deposited data

How the results depend on the processing

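Of 14 called members, 9 kept the call in every alternative that tested them: SLC3A2, SLC1A5, SLC1A1, SLC1A2, SLC6A6, SLC6A14, SLC6A16, SLC38A7 and SLC43A1. No member reversed, and none gained a call. SLC6A14 had met the count rule only through the controls, so its kept call describes it and supports nothing. Leaving out 1 library in turn gave 4 to 7 higher and 5 lower members. The median log2 fold change of the members tested was 0.088 with total counts only and -0.00858 with a filter of 1 CPM in 3 libraries, which tested 29 of them; the SLC3A2 and SLC1A5 calls held in both. Over all genes, leaving out a library gave 1789 to 2310 higher and 2199 to 2735 lower, and the higher share of calls was 46.1% with TMM, 59.6% with upper-quartile factors and 61.7% with total counts; these scalings moved the median of all genes by 0.04.

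The replicate numbers did not pair the libraries (correlation of same-numbered deviations -0.07, 0.06 and 0.03), and CDK12 replicate 1 did not correlate best with control replicate 1. With the replicate block 7 members were higher and 5 lower; 2330 genes were higher and 2776 lower. Under the block 0 other carriers were higher and 1 marker of other cell types was.

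For carriers outside the families, 0 were higher with no filter beyond 1 count, with DESeq2, with limma-voom and in every fit without a library, and 1 was lower without control replicate 1 and 5 without control replicate 2. For mTORC1 sensing, 1 was higher with DESeq2, and 1 to 2 without a library (1 without control replicate 3). For the deprivation response, 2 to 4 were higher without a library (2 without control replicate 1). For glutathione, 2 were lower with upper-quartile factors and 2 with total counts; without a library, 1 to 3 were higher (1 without CDK12 replicate 3, control replicate 1 or control replicate 2) and 3 to 5 lower (3 without CDK12 replicate 2, control replicate 1 or control replicate 3). For the synthetases, 7 were higher with upper-quartile factors and 8 with total counts; without a library, 1 to 3 were higher (1 without control replicate 1 or 3, 2 without CDK12 replicate 2 or control replicate 2). For epithelial markers, 1 was higher with upper-quartile factors and 1 with total counts, and 0 to 1 without a library (1 without CDK12 replicate 1). For markers of other cell types, 1 was higher and 1 lower with the filter of 1 CPM in 3 libraries, 1 lower with the filter of a mean of 10 counts, 1 higher with DESeq2, and 1 to 2 higher without a library (1 without CDK12 replicate 1 or 3 or control replicate 1 or 3). The cause of these shifts was not tested, save that the stricter filters test fewer genes. Of the 5 called members under 1 CPM in controls, SLC6A14 and SLC6A16 kept the call in every alternative that tested them, while SLC6A12, SLC6A13 and SLC7A9 lost theirs in 6, 5 and 8 of 14. The count rule had let in SLC6A14 through the controls only and SLC6A12 through the CDK12 libraries only.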
